A study of Homo sapiens with 12 samples.

Results

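The RNA levels of 37 genes that drive mitosis, from entry into division to the splitting of the daughter cells, were measured in HepG2 cells with ARID1B targeted or intact and with or without sorafenib. The genes were taken by name from a list of mitotic kinases, checkpoint proteins, kinesins, kinetochore proteins and their partners, and the transcripts of each gene were summed. All 37 were found among the 35810 genes in the data, and all 37 were among the 12821 genes with enough reads to be tested. HepG2 is an established human hepatoblastoma line with hepatocyte-like gene expression. Polyadenylated RNA was sequenced in 4 groups of 3 libraries: ARID1B-KO cells, in which the gene was targeted with CRISPR/Cas9, given 5 µM sorafenib for 48 h; ARID1B-KO cells given DMSO at 0.1% by volume; wild-type (WT) cells given the same sorafenib; and WT cells given the same DMSO. ARID1B belongs to the BAF (SWI/SNF) complexes, which remodel nucleosomes, and sorafenib inhibits RAF and growth factor receptor kinases. The series title concerns sorafenib resistance after ARID1B loss. The number of ARID1B-KO clones is not stated, so a clone and the genotype cannot be told apart, and the 3 replicates of a group are stated to be biological.

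Mitosis is driven by CDK1 bound to A- and B-type cyclins, which CDC25 phosphatases switch on and which the anaphase-promoting complex switches off by destroying the cyclins. Polo and Aurora kinases, kinesin motors and kinetochore proteins build the spindle and attach chromosomes to it, and the spindle checkpoint holds anaphase back until the attachments are complete. Most of these genes are transcribed late in the cycle from promoters with a cell cycle homology region (letters TTTGAA or TTTAAA) and CCAAT boxes. In resting cells the DREAM complex represses them through the homology region, and in dividing cells MYBL2 and FOXM1 activate them.

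Promoters of 31 of the 37 genes were found in the RefSeq table (GRCh38.p14), as 41 windows from 250 bases before to 50 bases after an annotated start. BUB3, BIRC5, UBE2C, AURKA, TPX2 and TTK had no entry. Searched on both strands, TTTGAA or TTTAAA was present in 32 of the 41 windows (78.05%), against 23.99% of the 35116 windows in the table. CCAAT was present in 30 of 41 (73.17%), against 34.61% of all windows, and both kinds together in 24 of 41 (58.54%), against 9.269%. By gene, 28 of 31 held TTTGAA or TTTAAA in at least 1 window, and AURKB, BUB1 and CCNA2 held neither. A match to these letters is a description of the sequence and not a mapped site. Other forms of the homology region were not searched for, so a window without these letters may still hold one. The 8 stretches below run from 130 bases before to 20 bases after the start, 5′ to 3′ on the strand of the gene, with each match to TTTGAA or TTTAAA, and to the box CCAAT, in capitals. A match on the other strand reads TTCAAA for the homology region or ATTGG for the box. PLK1, CDK1, KIF23, PRC1 and ECT2 fell with sorafenib in both genotypes, KIF20A and CDC25B rose in both, and CCNA2 was higher in ARID1B-KO cells than in WT cells under both treatments. Genes with the same calls are not all shown. MAD2L1 and TPX2 also fell in both genotypes, and CDC25C and CDCA8 were also higher in ARID1B-KO cells under both treatments. MAD2L1 has CCAAT at -229 and TTTGAA at 25 from its start, outside the stretch length. CDC25C has TTTGAA at -30 from a start and CDCA8 at -23, so the 8 stretches do not set sequence against response.
PLK1, chr16:23678759-23678908, plus strand: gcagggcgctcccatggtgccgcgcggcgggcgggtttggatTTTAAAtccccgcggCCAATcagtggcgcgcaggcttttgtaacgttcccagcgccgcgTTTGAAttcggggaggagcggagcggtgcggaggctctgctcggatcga
CDK1, chr10:60778348-60778497, plus strand: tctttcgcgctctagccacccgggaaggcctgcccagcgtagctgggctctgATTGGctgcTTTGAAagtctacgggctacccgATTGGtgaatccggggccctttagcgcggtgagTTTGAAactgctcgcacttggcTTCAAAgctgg
KIF23, chr15:69414219-69414368, plus strand: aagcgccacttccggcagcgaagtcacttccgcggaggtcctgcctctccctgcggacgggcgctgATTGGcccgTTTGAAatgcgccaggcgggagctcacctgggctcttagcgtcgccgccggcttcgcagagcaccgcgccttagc
PRC1, chr15:90994516-90994665, minus strand: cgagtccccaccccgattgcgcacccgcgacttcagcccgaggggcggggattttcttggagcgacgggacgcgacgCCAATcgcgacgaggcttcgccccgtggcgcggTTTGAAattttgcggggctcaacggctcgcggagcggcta
ECT2, chr3:172750596-172750745, plus strand: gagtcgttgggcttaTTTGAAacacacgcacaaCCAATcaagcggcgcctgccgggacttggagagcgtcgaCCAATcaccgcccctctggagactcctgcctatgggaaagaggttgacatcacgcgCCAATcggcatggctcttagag
KIF20A, chr5:138178982-138179131, plus strand: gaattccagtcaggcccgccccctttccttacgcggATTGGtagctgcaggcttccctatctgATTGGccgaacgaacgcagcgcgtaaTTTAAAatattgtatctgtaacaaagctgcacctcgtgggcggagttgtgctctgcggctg
CDC25B, chr20:3796180-3796329, plus strand: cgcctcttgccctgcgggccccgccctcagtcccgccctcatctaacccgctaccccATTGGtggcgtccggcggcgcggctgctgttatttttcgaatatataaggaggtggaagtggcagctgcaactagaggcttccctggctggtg
CCNA2, chr4:121823864-121824013, minus strand: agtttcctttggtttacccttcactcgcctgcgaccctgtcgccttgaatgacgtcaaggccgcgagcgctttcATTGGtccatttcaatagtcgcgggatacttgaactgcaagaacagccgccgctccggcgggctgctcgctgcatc
The KIF20A stretch holds TTTAAA and 2 CCAAT boxes, and the CDC25B and CCNA2 stretches hold a CCAAT box and neither TTTGAA nor TTTAAA. CDC25B has 4 annotated starts and CDK1 and ECT2 have 2 each, and the start whose 150-base stretch holds the most of these letters is shown. Another CDC25B start has TTTAAA from base 33 after it, outside the stretch length shown.

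Libraries held 19739582 to 29398257 estimated counts, and the lowest estimated count of any of the 37 genes in any library was 353, for CENPA. ARID1B itself had 35.6, 25.9 and 26.5 CPM (counts scaled to a TMM-normalised library of 1000000) in ARID1B-KO sorafenib libraries and 26.4, 28.0 and 27.6 CPM in ARID1B-KO DMSO libraries, against 67.5, 69.1 and 62.3 CPM in WT sorafenib libraries and 58.4, 61.9 and 66.7 CPM in WT DMSO libraries. Every ARID1B-KO library was below every WT library, at -1.18 ± 0.11 (edgeR adjusted p = 8.89e-06) in sorafenib and -1.19 ± 0.11 (edgeR adjusted p = 7.44e-06) in DMSO, and the RNA was still present. The labels do not describe the edit. The hepatocyte markers ALB, AFP and HNF4A were at 28.9 TPM or more in every library, and the 8 hepatocyte markers summed to 125580 to 165030 TPM in ARID1B-KO sorafenib libraries, 90338 to 104640 TPM in ARID1B-KO DMSO libraries, 91985 to 93936 TPM in WT sorafenib libraries and 68435 to 75282 TPM in WT DMSO libraries. ALB held most of that sum, and some markers went the other way. APOB was at 688 to 982 TPM in ARID1B-KO sorafenib libraries against 1258 to 1915 TPM in ARID1B-KO DMSO libraries, and at 847 to 1020 TPM in WT sorafenib libraries against 1222 to 1775 TPM in WT DMSO libraries. TTR was highest in WT DMSO libraries, at 651 to 827 TPM, and AFP was at 19248 to 20189 TPM in WT sorafenib libraries against 21869 to 22938 TPM in WT DMSO libraries. The 4 leukocyte markers summed to 585 to 635 TPM in ARID1B-KO sorafenib libraries, 2325 to 2832 TPM in ARID1B-KO DMSO libraries, 965 to 1135 TPM in WT sorafenib libraries and 4141 to 5134 TPM in WT DMSO libraries, nearly all of it LYZ. The 6 fibroblast markers summed to 0.221 to 0.804 TPM in ARID1B-KO sorafenib libraries, 0.830 to 4.17 TPM in ARID1B-KO DMSO libraries, 0.326 to 2.66 TPM in WT sorafenib libraries and 4.48 to 7.74 TPM in WT DMSO libraries, mostly PDGFRB. Sums of the 4 endothelial markers reached 2.69 TPM and those of 4 kidney and squamous markers 2.08 TPM, with CDH5 up to 1.41 TPM and PAX8 up to 2.08 TPM. Of these 4 lists, PTPRC, COL1A2, THY1, KDR and KRT5 were listed at 0 TPM in all 12 libraries. The part of these marker levels in the results was not tested.

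The 37 genes shifted together from one library to the next within a group. WT DMSO replicate 1 was the highest of its group for 29 of the 37 genes and WT sorafenib replicate 1 for 32, by a median of 0.19 each on the log2 scale over the other replicates. ARID1B-KO sorafenib replicate 1 was the lowest of its group for 29 genes, by a median of -0.19, and it had the highest mitochondrial share of counts, 12.3%, in a range over the libraries of 6.75% to 12.3%. The part of these shifts in the results was not tested beyond leaving each library out. Summed over the 37 genes, the level was 3217 ± 191 CPM in ARID1B-KO sorafenib cells and 3807 ± 118 CPM in ARID1B-KO DMSO cells (mean ± SD, n = 3 each). It was 3129 ± 253 CPM in WT sorafenib cells and 3528 ± 273 CPM in WT DMSO cells (mean ± SD, n = 3 each), and the WT ranges, 2970 to 3420 CPM and 3350 to 3842 CPM, overlapped. In bulk RNA, fewer mitotic cells and less mitotic RNA per cell cannot be told apart.

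**Figure D1:**
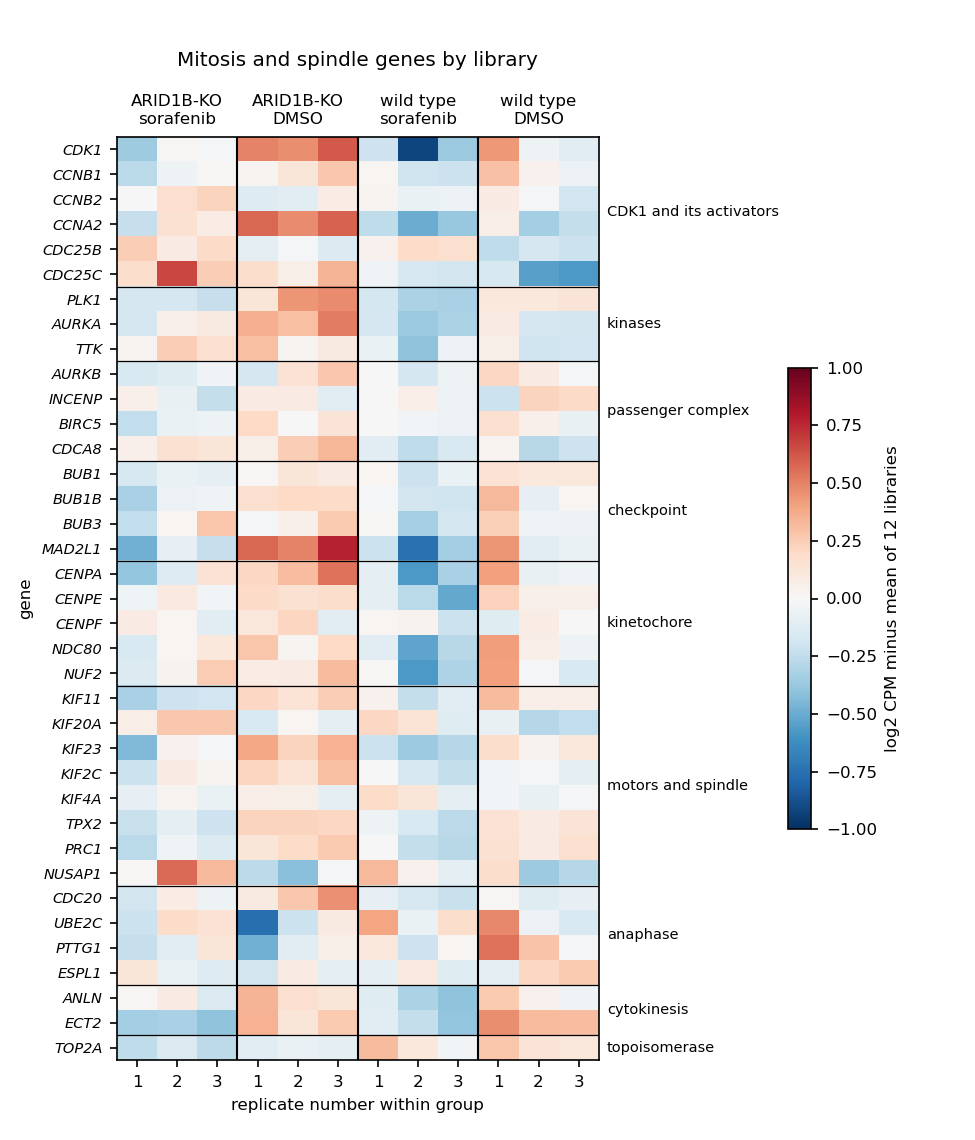
Level of each of the 37 genes (rows, by role) in each of the 12 libraries (columns, by group and replicate number), as log2 CPM minus the mean of the gene over the 12 libraries; red is above and blue below that mean. ARID1B-KO DMSO libraries are red for CDK1, CCNA2, PLK1, AURKA and MAD2L1, WT DMSO replicate 1 is redder than the other replicates of its group over most rows, and ARID1B-KO sorafenib replicate 1 is bluer than its own.

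With sorafenib more of the mitotic genes fell than rose in both genotypes, and no change reached 2-fold. In ARID1B-KO cells 15 of the 37 genes were lower with sorafenib than with DMSO and 3 were higher at an adjusted p under 0.05; over all genes tested 46.7% were called, 23.7% lower and 23% higher. In WT cells 11 were lower and 2 higher, where 35.4% of all genes were called, 18% lower and 17.5% higher. The share of the 37 called in either direction, 48.6% in ARID1B-KO cells and 35.1% in WT cells, was near that of all genes. Called lower were 40.5% of the members in ARID1B-KO cells and 29.7% in WT cells. The median log2 fold change of the 37 was -0.18 in ARID1B-KO cells and -0.21 in WT cells, beside 0.0067 and -0.0090 over all genes. It was below 0 for 28 of the 37 genes in ARID1B-KO cells, beside 49.5% of all genes, and for 30 in WT cells, beside 50.8% of all genes. The sorafenib and DMSO libraries did not overlap for 23 of the 37 genes in ARID1B-KO cells, where 52.9% of all genes did not, and for 14 in WT cells, where 50.8% did not. The largest change was 1.83-fold in ARID1B-KO cells, for MAD2L1, and 1.52-fold in WT cells, for ECT2.

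CDK1, ECT2, KIF23, MAD2L1, PLK1, PRC1 and TPX2 were called lower in both genotypes, and CDC25B and KIF20A were called higher in both. AURKA, BIRC5, BUB1B, CCNA2, CDC20, CENPA, KIF11 and KIF2C were called lower in ARID1B-KO cells and not in WT cells, and ANLN, BUB1, CENPE and NDC80 the other way round. These differences between the genotypes did not themselves pass a test: the genotype by sorafenib interaction, the log2 fold change in ARID1B-KO cells minus that in WT cells, called 0 of the 37 genes, beside 0.835% of all genes, 0.374% higher and 0.46% lower. With edgeR 0 of the 37 had an unadjusted p under 0.05 for the interaction, a share not computed over all genes. DESeq2 also called 0 of the 37, where it called 584 of the 12821 genes. The smallest p was that of CCNA2, with an interaction of -0.33 ± 0.17 (edgeR adjusted p = 0.390). Interactions of the 37 lay between -0.34 and 0.40 with standard errors of 0.10 to 0.31, so the precision of each difference was limited.

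The call counts in WT cells depended on single libraries. Without WT DMSO replicate 1, 5 genes were called lower instead of 11; without WT sorafenib replicate 2 the count was 3, and without WT sorafenib replicate 3 it was 5. Without WT sorafenib replicate 1, 14 were called lower and 1 higher. Over all genes the calls in either direction fell from 4543 to 3940, 3587, 3591 and 3852 with these libraries left out, in that order. In ARID1B-KO cells the lower count was 9 without ARID1B-KO sorafenib replicate 1 and 10 without ARID1B-KO DMSO replicate 3. All genes called in ARID1B-KO cells fell from 5982 to 5143 and 5302 in these settings. The 3 higher calls there became 0 with scaling by library totals, and 1 without ARID1B-KO DMSO replicate 1, ARID1B-KO sorafenib replicate 2 or ARID1B-KO sorafenib replicate 3. With an offset for transcript length, 6 genes were called lower in WT cells. Where libraries are named in this way here and below, each was left out alone. ECT2 was called lower in WT cells under all 22 alternative settings, as was CDC25B higher, and CCNA2, PLK1, AURKA, MAD2L1, KIF11, KIF23, TPX2 and ECT2 were called lower in ARID1B-KO cells under all 22.

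**Figure D2:**
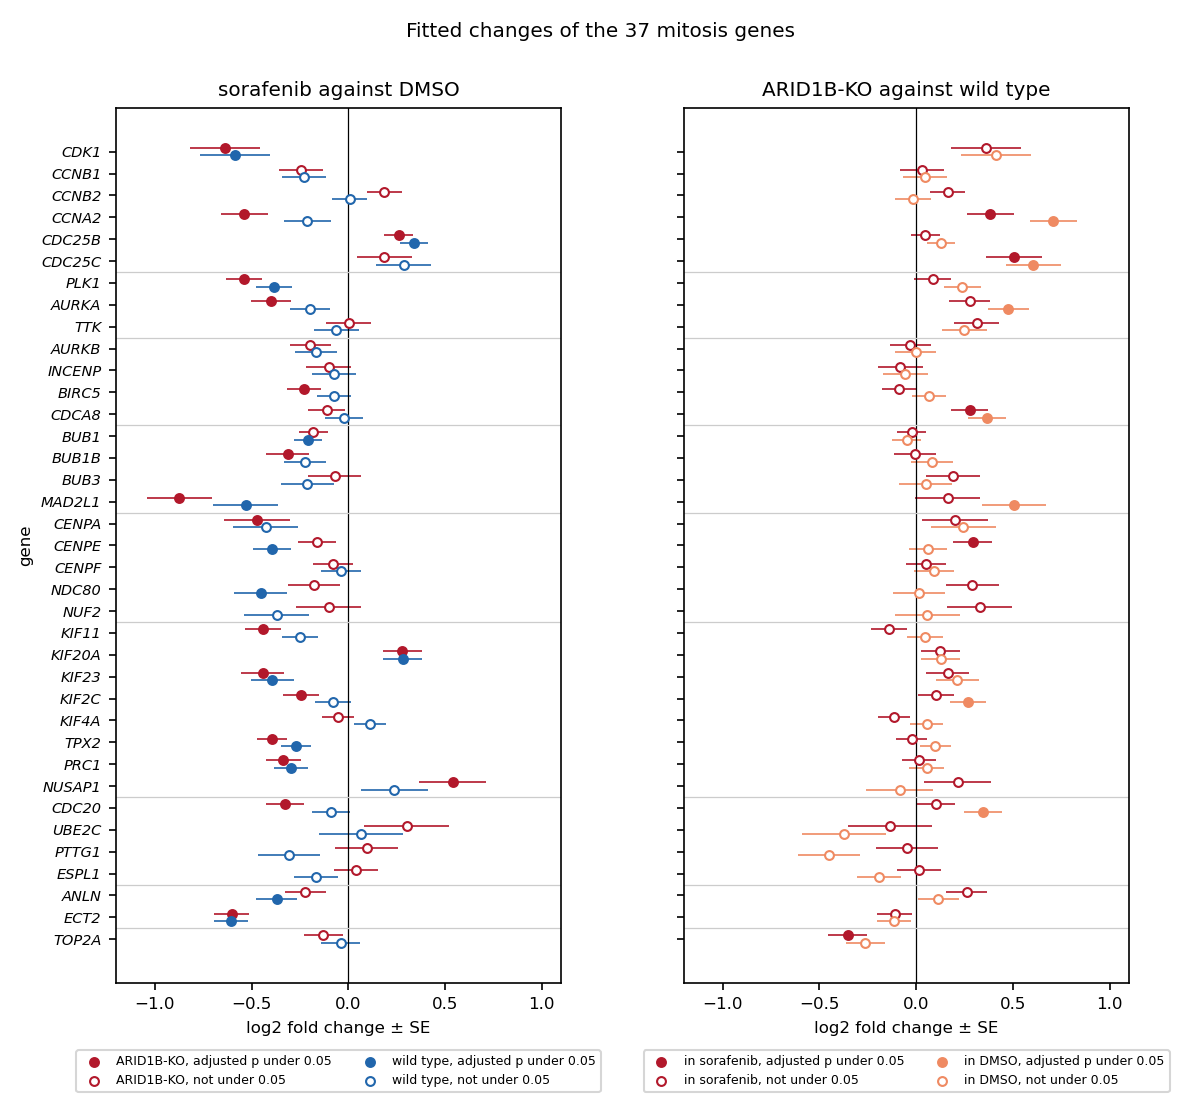
Log2 fold change with its standard error for each of the 37 genes (rows, by role): sorafenib against DMSO on the left, in ARID1B-KO cells (red) and WT cells (blue), and ARID1B-KO against WT on the right, in sorafenib (red) and DMSO (orange). Filled points have an edgeR adjusted p under 0.05: 18 red and 13 blue on the left, 5 red and 7 orange on the right.

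Among CDK1, its cyclins and its activating phosphatases, CDK1 fell in both genotypes and CDC25B rose in both. CDK1, the kinase whose activity starts mitosis, had 90.1, 116 and 114 CPM in ARID1B-KO sorafenib libraries, against 162, 159 and 176 CPM in ARID1B-KO DMSO libraries. It had 99.6, 60.9 and 89.0 CPM in WT sorafenib libraries, against 156, 111 and 107 CPM in WT DMSO libraries. The sorafenib libraries lay below the DMSO libraries in both genotypes, with WT DMSO replicate 1 well above the other replicates of its group. The log2 fold change, given here and below with its standard error, was -0.64 ± 0.18 (edgeR adjusted p = 0.0115) in ARID1B-KO cells and -0.58 ± 0.18 (edgeR adjusted p = 0.0239) in WT cells. The CDK1 call in ARID1B-KO cells was lost without ARID1B-KO sorafenib replicate 1 (edgeR adjusted p = 0.0572). The CDK1 call in WT cells was lost without WT sorafenib replicate 2 or WT DMSO replicate 1, and with only the compared groups in the fit (edgeR adjusted p between 0.0735 and 0.112).

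CDC25B, a phosphatase that activates CDK1 around the centrosomes early in mitotic entry, had 67.9, 60.4 and 65.4 CPM in ARID1B-KO sorafenib libraries, against 53.4, 56.3 and 51.9 CPM in ARID1B-KO DMSO libraries. It had 58.8, 65.0 and 63.8 CPM in WT sorafenib libraries, against 48.0, 50.8 and 49.2 CPM in WT DMSO libraries. Every sorafenib library was above every DMSO library of its genotype. The CDC25B log2 fold change was 0.26 ± 0.074 (edgeR adjusted p = 0.0110) in ARID1B-KO cells, and 0.34 ± 0.074 (edgeR adjusted p = 0.00301) in WT cells. The CDC25B call in ARID1B-KO cells was lost with scaling by library totals (edgeR adjusted p = 0.178). Its relative CDC25C had no call for the drug, with 0.19 ± 0.14 (edgeR adjusted p = 0.310) in ARID1B-KO cells and 0.29 ± 0.14 (edgeR adjusted p = 0.145) in WT cells.

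CCNA2, the A-type cyclin that acts in S phase and at mitotic entry, had 129, 168 and 159 CPM in ARID1B-KO sorafenib libraries, against 225, 210.2 and 228 CPM in ARID1B-KO DMSO libraries. It had 127, 107 and 116 CPM in WT sorafenib libraries, against 158, 119.7 and 128 CPM in WT DMSO libraries. The ARID1B-KO groups were clearly apart and the WT groups overlapped. The CCNA2 log2 fold change was -0.54 ± 0.12 (edgeR adjusted p = 0.00279) in ARID1B-KO cells and -0.21 ± 0.12 (edgeR adjusted p = 0.197) in WT cells. CCNB1, the main mitotic cyclin, had 122, 142 and 149 CPM in ARID1B-KO sorafenib libraries, against 150.5, 161 and 178 CPM in ARID1B-KO DMSO libraries. It had 149.9, 128 and 127 CPM in WT sorafenib libraries, against 181, 152 and 142 CPM in WT DMSO libraries. Its sorafenib values did not overlap its DMSO values in ARID1B-KO cells but did in WT cells, and neither change was called, at -0.24 ± 0.11 (edgeR adjusted p = 0.0978) in ARID1B-KO cells and -0.23 ± 0.11 (edgeR adjusted p = 0.139) in WT cells. CCNB2, another B-type cyclin, was not called either, at 0.19 ± 0.091 (edgeR adjusted p = 0.112) in ARID1B-KO cells and 0.0069 ± 0.091 (edgeR adjusted p = 0.963) in WT cells.

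PLK1, the polo kinase that acts in mitotic entry, spindle assembly and cytokinesis, was lower with sorafenib in both genotypes. It had 149, 149 and 142 CPM in ARID1B-KO sorafenib libraries, against 182, 226 and 231 CPM in ARID1B-KO DMSO libraries. It had 148, 134 and 133 CPM in WT sorafenib libraries, against 179.9, 179.5 and 182 CPM in WT DMSO libraries. The groups did not overlap in either genotype, and the WT DMSO values lay within 3 CPM of each other. The PLK1 log2 fold change was -0.54 ± 0.094 (edgeR adjusted p = 0.000449) in ARID1B-KO cells and -0.39 ± 0.094 (edgeR adjusted p = 0.00612) in WT cells. The PLK1 call in WT cells was lost with the transcript length offset (edgeR adjusted p = 0.0617). AURKA, the Aurora kinase of the spindle poles, was called lower in ARID1B-KO cells, at -0.40 ± 0.10 (edgeR adjusted p = 0.00723), with -0.20 ± 0.10 (edgeR adjusted p = 0.161) in WT cells. TTK, the kinase that starts the spindle checkpoint, was not called, at 0.0011 ± 0.12 (edgeR adjusted p = 0.995) in ARID1B-KO cells and -0.063 ± 0.12 (edgeR adjusted p = 0.716) in WT cells.

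The chromosomal passenger complex, which corrects faulty attachments and directs cytokinesis, had 1 call among its 4 genes with sorafenib. BIRC5 (survivin) was called lower in ARID1B-KO cells, at -0.23 ± 0.088 (edgeR adjusted p = 0.0498), with -0.076 ± 0.088 (edgeR adjusted p = 0.541) in WT cells. The BIRC5 call in ARID1B-KO cells was lost without ARID1B-KO sorafenib replicate 1 or 2, ARID1B-KO DMSO replicate 1 or 3, WT sorafenib replicate 1, 2 or 3 or WT DMSO replicate 2. It was also lost with 6 settings that kept every library, and with only the compared groups in the fit (edgeR adjusted p between 0.05 and 0.299 for all these losses). AURKB, its kinase, INCENP, its scaffold, and CDCA8 (borealin) were not called in either genotype, with log2 fold changes between -0.20 and -0.10 in ARID1B-KO cells and between -0.17 and -0.023 in WT cells.

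Of the 4 spindle checkpoint genes besides TTK, MAD2L1, the protein that is converted at unattached kinetochores to the inhibitor of anaphase, changed most. It had 68.6, 90.3 and 81.7 CPM in ARID1B-KO sorafenib libraries, against 143, 135 and 163 CPM in ARID1B-KO DMSO libraries. It had 82.3, 57.1 and 75.4 CPM in WT sorafenib libraries, against 129.7, 89.0 and 91.4 CPM in WT DMSO libraries. The groups did not overlap in either genotype, and WT DMSO replicate 1 stood well above the other replicates of its group. The MAD2L1 log2 fold change was -0.87 ± 0.17 (edgeR adjusted p = 0.00102) in ARID1B-KO cells and -0.53 ± 0.17 (edgeR adjusted p = 0.0259) in WT cells. The MAD2L1 call in WT cells was lost without WT sorafenib replicate 2 or 3 or WT DMSO replicate 1, and with only the compared groups in the fit (edgeR adjusted p between 0.0515 and 0.121). BUB1B (BUBR1), which holds CDC20 inactive, was called lower in ARID1B-KO cells, at -0.31 ± 0.11 (edgeR adjusted p = 0.0311), with -0.23 ± 0.11 (edgeR adjusted p = 0.127) in WT cells. The BUB1B call in ARID1B-KO cells was lost without ARID1B-KO sorafenib replicate 1 or ARID1B-KO DMSO replicate 1, 2 or 3, and with the transcript length offset or protein-coding transcripts alone (edgeR adjusted p between 0.0562 and 0.250). BUB1, the kinase that recruits the other checkpoint proteins, was called lower in WT cells, at -0.21 ± 0.074 (edgeR adjusted p = 0.0443), with -0.18 ± 0.074 (edgeR adjusted p = 0.0615) in ARID1B-KO cells. The BUB1 call in WT cells was lost without ARID1B-KO sorafenib replicate 2, ARID1B-KO DMSO replicate 2 or 3, WT sorafenib replicate 2 or 3 or WT DMSO replicate 1, 2 or 3. It was also lost with 5 settings that kept every library, and with only the compared groups in the fit (edgeR adjusted p between 0.05 and 0.326 for all these losses). BUB3, which carries BUB1 and BUBR1 to the kinetochore, was not called, at -0.070 ± 0.14 (edgeR adjusted p = 0.710) in ARID1B-KO cells and -0.21 ± 0.14 (edgeR adjusted p = 0.257) in WT cells.

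Among the 5 kinetochore genes, CENPE, the motor that moves chromosomes to the spindle equator, had 51.4, 56.9 and 51.9 CPM in ARID1B-KO sorafenib libraries, against 60.5, 59.0 and 59.7 CPM in ARID1B-KO DMSO libraries. It had 49.7, 43.9 and 37.2 CPM in WT sorafenib libraries, against 62.1, 55.0 and 54.9 CPM in WT DMSO libraries. The WT sorafenib libraries were the lowest of the 12. The CENPE log2 fold change was -0.16 ± 0.099 (edgeR adjusted p = 0.200) in ARID1B-KO cells and -0.39 ± 0.099 (edgeR adjusted p = 0.00744) in WT cells. The CENPE call in WT cells was lost with the transcript length offset (edgeR adjusted p = 0.387). That setting adds an offset for the average length of the transcripts to which the reads of a gene were assigned. NDC80, which binds microtubules, was called lower in WT cells, at -0.45 ± 0.14 (edgeR adjusted p = 0.0199), with -0.18 ± 0.14 (edgeR adjusted p = 0.309) in ARID1B-KO cells. The NDC80 call in WT cells was lost without WT sorafenib replicate 2 or 3 or WT DMSO replicate 1, and with the transcript length offset (edgeR adjusted p between 0.0541 and 0.0960). Its partner NUF2 was not called, at -0.10 ± 0.17 (edgeR adjusted p = 0.656) in ARID1B-KO cells and -0.37 ± 0.17 (edgeR adjusted p = 0.107) in WT cells. CENPA, the histone variant that marks centromeres, was called lower in ARID1B-KO cells, at -0.47 ± 0.17 (edgeR adjusted p = 0.0371), with -0.43 ± 0.17 (edgeR adjusted p = 0.0673) in WT cells. The CENPA call in ARID1B-KO cells was lost without ARID1B-KO sorafenib replicate 1 or 2, ARID1B-KO DMSO replicate 2 or 3 or WT sorafenib replicate 3, and with the transcript length offset or protein-coding transcripts alone (edgeR adjusted p between 0.0507 and 0.155). CENPF, a large protein of the outer kinetochore, had no call in either genotype, at -0.079 ± 0.10 (edgeR adjusted p = 0.566) in ARID1B-KO cells and -0.039 ± 0.10 (edgeR adjusted p = 0.804) in WT cells.

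Of the 8 motor and spindle genes, KIF11, KIF23, KIF2C, TPX2 and PRC1 were called lower in ARID1B-KO cells, where KIF20A and NUSAP1 were called higher, and KIF23, TPX2 and PRC1 were called lower in WT cells, where KIF20A was called higher. KIF11, the motor that pushes the spindle poles apart, was at -0.44 ± 0.093 (edgeR adjusted p = 0.00190) in ARID1B-KO cells and at -0.25 ± 0.093 (edgeR adjusted p = 0.0513) in WT cells. TPX2, which activates AURKA on the spindle, was at -0.39 ± 0.079 (edgeR adjusted p = 0.00127) in ARID1B-KO cells and at -0.27 ± 0.079 (edgeR adjusted p = 0.0166) in WT cells. The TPX2 call in WT cells was lost without WT sorafenib replicate 2 or 3, and with the transcript length offset (edgeR adjusted p between 0.0506 and 0.0852). KIF23 and PRC1 act at the spindle midzone, the first as the motor of centralspindlin and the second as the bundler of midzone microtubules. KIF23 was at -0.44 ± 0.11 (edgeR adjusted p = 0.00583) in ARID1B-KO cells and at -0.39 ± 0.11 (edgeR adjusted p = 0.0151) in WT cells. The KIF23 call in WT cells was lost without WT sorafenib replicate 2 (edgeR adjusted p = 0.0596). PRC1 was at -0.34 ± 0.090 (edgeR adjusted p = 0.00797) in ARID1B-KO cells and at -0.30 ± 0.089 (edgeR adjusted p = 0.0200) in WT cells. The PRC1 call in ARID1B-KO cells was lost with the transcript length offset (edgeR adjusted p = 0.0865). The PRC1 call in WT cells was lost without WT sorafenib replicate 2 or 3 or WT DMSO replicate 1 or 3, and with protein-coding transcripts alone (edgeR adjusted p between 0.0514 and 0.195). KIF2C, a depolymerising kinesin of the centromere, was at -0.25 ± 0.092 (edgeR adjusted p = 0.0433) in ARID1B-KO cells and at -0.078 ± 0.092 (edgeR adjusted p = 0.549) in WT cells. The KIF2C call in ARID1B-KO cells was lost without ARID1B-KO sorafenib replicate 1 or 3, ARID1B-KO DMSO replicate 1 or 3, WT sorafenib replicate 2 or WT DMSO replicate 2 or 3, and with 7 settings that kept every library (edgeR adjusted p between 0.0503 and 0.217). KIF4A, a kinesin of chromosome arms and midzone, had no call, at -0.053 ± 0.083 (edgeR adjusted p = 0.637) in ARID1B-KO cells and 0.11 ± 0.083 (edgeR adjusted p = 0.316) in WT cells.

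KIF20A, which brings PLK1 to the midzone, moved the opposite way to KIF23 and PRC1. It had 72.8, 83.6 and 83.5 CPM in ARID1B-KO sorafenib libraries, against 62.2, 70.2 and 65.3 CPM in ARID1B-KO DMSO libraries. It had 80.0, 76.3 and 63.7 CPM in WT sorafenib libraries, against 65.9, 56.9 and 58.3 CPM in WT DMSO libraries. The groups were apart in ARID1B-KO cells, and WT sorafenib replicate 3 lay within the WT DMSO values. The KIF20A log2 fold change was 0.28 ± 0.10 (edgeR adjusted p = 0.0363) in ARID1B-KO cells and 0.28 ± 0.10 (edgeR adjusted p = 0.0448) in WT cells. The KIF20A call in ARID1B-KO cells was lost without ARID1B-KO sorafenib replicate 2 or 3 or ARID1B-KO DMSO replicate 1 or 3, and with scaling by library totals or the transcript length offset (edgeR adjusted p between 0.0635 and 0.243). The KIF20A call in WT cells was lost without ARID1B-KO sorafenib replicate 2, WT sorafenib replicate 1 or 2 or WT DMSO replicate 2 or 3. It was also lost with scaling by library totals, no filter, the transcript length offset or a replicate block (edgeR adjusted p between 0.05 and 0.299 for all these losses). NUSAP1, which bundles microtubules near chromosomes, had 52.2, 76.9 and 64.9 CPM in ARID1B-KO sorafenib libraries, against 43.4, 38.8 and 51.4 CPM in ARID1B-KO DMSO libraries. It had 64.9, 53.6 and 48.6 CPM in WT sorafenib libraries, against 58.5, 40.4 and 42.6 CPM in WT DMSO libraries. The lowest ARID1B-KO sorafenib value was just above the highest ARID1B-KO DMSO value, and the WT groups overlapped. The NUSAP1 log2 fold change was 0.54 ± 0.17 (edgeR adjusted p = 0.0231) in ARID1B-KO cells and 0.24 ± 0.17 (edgeR adjusted p = 0.316) in WT cells. The NUSAP1 call in ARID1B-KO cells was lost without ARID1B-KO sorafenib replicate 2 or 3 or ARID1B-KO DMSO replicate 1 or 2, and with scaling by library totals (edgeR adjusted p between 0.0520 and 0.107).

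ECT2, the exchange factor that switches on RHOA to form the cleavage furrow, fell in both genotypes. It had 47.7, 48.4 and 45.7 CPM in ARID1B-KO sorafenib libraries, against 77.0, 65.9 and 72.6 CPM in ARID1B-KO DMSO libraries. It had 55.8, 51.4 and 46.0 CPM in WT sorafenib libraries, against 83.3, 75.2 and 74.8 CPM in WT DMSO libraries. No sorafenib library reached the lowest DMSO library. The ECT2 log2 fold change was -0.60 ± 0.089 (edgeR adjusted p = 0.000126) in ARID1B-KO cells and -0.61 ± 0.089 (edgeR adjusted p = 0.000184) in WT cells, and the interaction was 0.0034 ± 0.13 (edgeR adjusted p = 0.994). ANLN, which organises the contractile ring, was called lower in WT cells, at -0.37 ± 0.11 (edgeR adjusted p = 0.0153), with -0.22 ± 0.11 (edgeR adjusted p = 0.101) in ARID1B-KO cells. The ANLN call in WT cells was lost without WT sorafenib replicate 2 or 3 or WT DMSO replicate 1, and with protein-coding transcripts alone (edgeR adjusted p between 0.0558 and 0.0800).

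Of the 4 genes of anaphase, 1 was called with sorafenib in ARID1B-KO cells and 0 in WT cells. Over all genes 46.7% were called in ARID1B-KO cells and 35.4% in WT cells. CDC20, the activator of the anaphase-promoting complex, was called lower in ARID1B-KO cells, at -0.33 ± 0.098 (edgeR adjusted p = 0.0150), with -0.089 ± 0.098 (edgeR adjusted p = 0.522) in WT cells. The CDC20 call in ARID1B-KO cells was lost without ARID1B-KO sorafenib replicate 1 or ARID1B-KO DMSO replicate 3, and with only the compared groups in the fit or protein-coding transcripts alone (edgeR adjusted p between 0.0516 and 0.241). UBE2C, a ubiquitin-conjugating enzyme of that complex, was not called, at 0.30 ± 0.22 (edgeR adjusted p = 0.287) in ARID1B-KO cells and 0.065 ± 0.22 (edgeR adjusted p = 0.845) in WT cells. PTTG1 (securin), which holds separase inactive, was at 0.095 ± 0.16 (edgeR adjusted p = 0.665) in ARID1B-KO cells and -0.31 ± 0.16 (edgeR adjusted p = 0.158) in WT cells. ESPL1 (separase), which cleaves cohesin at anaphase, was at 0.040 ± 0.11 (edgeR adjusted p = 0.805) in ARID1B-KO cells and -0.17 ± 0.11 (edgeR adjusted p = 0.273) in WT cells. UBE2C had the widest standard error of the 37, 0.22 in each drug contrast. TOP2A, the topoisomerase that untangles chromosomes, had 417, 450.4 and 415 CPM in ARID1B-KO sorafenib libraries, against 462, 473 and 467 CPM in ARID1B-KO DMSO libraries. It had 618, 534 and 487 CPM in WT sorafenib libraries, against 603, 542 and 539 CPM in WT DMSO libraries. Every ARID1B-KO library was below every WT library, and the drug changed neither genotype past the threshold, at -0.13 ± 0.10 (edgeR adjusted p = 0.318) in ARID1B-KO cells and -0.039 ± 0.10 (edgeR adjusted p = 0.798) in WT cells.

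**Figure D3:**
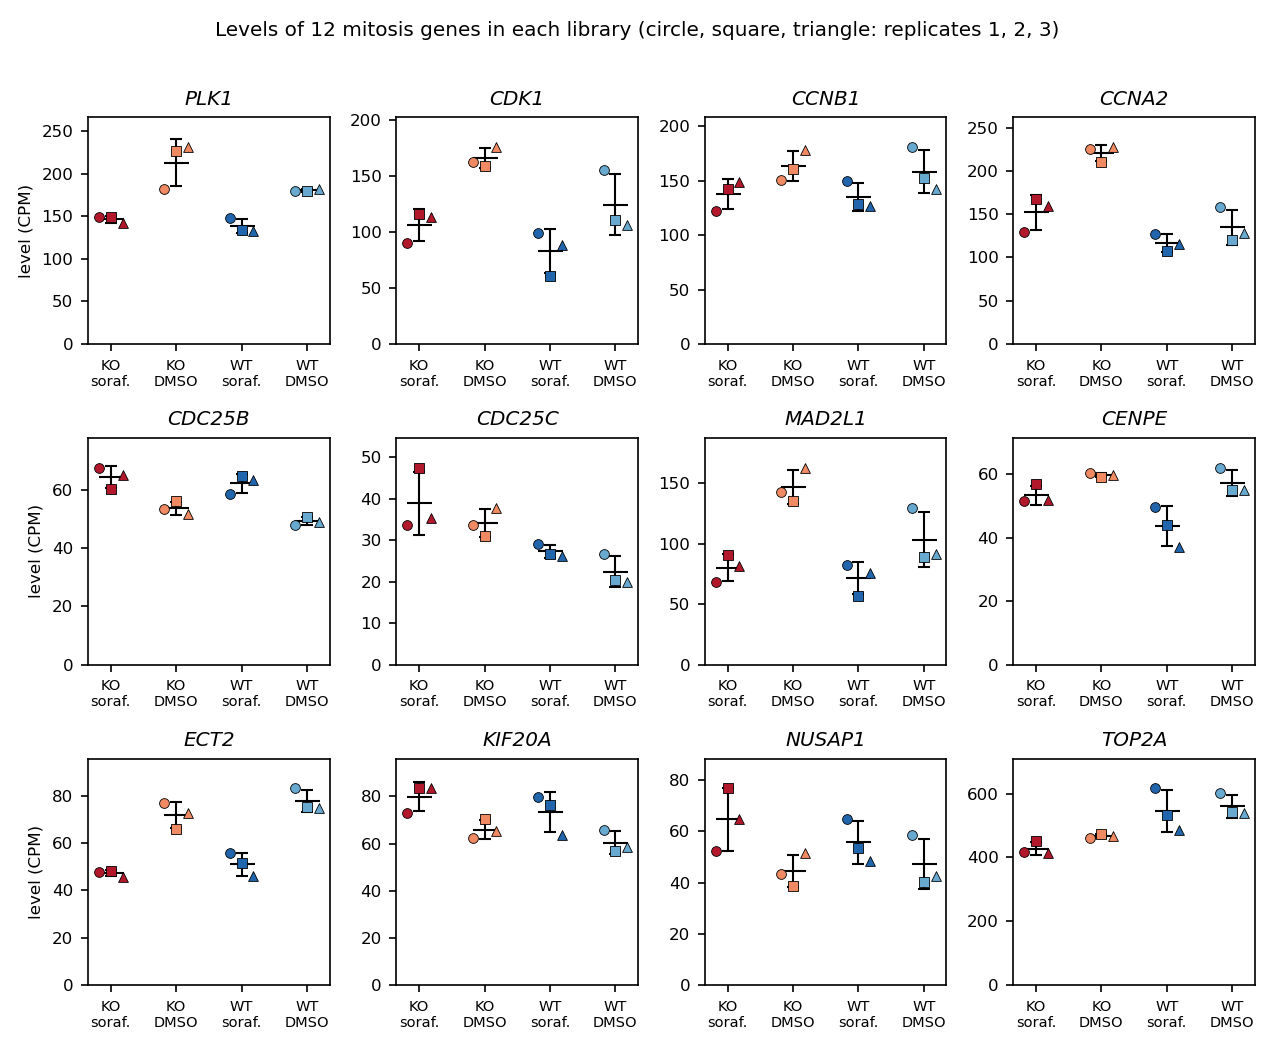
Level in CPM of 12 of the 37 genes in every library, by group (ARID1B-KO sorafenib, ARID1B-KO DMSO, WT sorafenib, WT DMSO), with the mean and SD of 3 libraries as a bar; circles, squares and triangles are replicates 1, 2 and 3. The PLK1, ECT2 and MAD2L1 sorafenib points lie below the DMSO points of the same genotype, CDC25B lies above, and CCNB1 overlaps in WT cells.

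With DMSO, 7 of the 37 genes were higher in ARID1B-KO DMSO cells than in WT DMSO cells and 0 were lower, in a contrast that called 27.8% of all genes, 14.3% higher and 13.5% lower. The count called, 18.9% of the members, was below the share of all genes. The median log2 fold change of the 37 was 0.064, beside 0.0052 over all genes. It was above 0 for 27 of 37 and below 0 for 27.0% of the 37, beside 49.4% of all genes below 0. For the 0 lower calls, DESeq2 called 2, in a contrast where it called 4025 of the 12821 genes in either direction. With edgeR, 11 of the 37 genes had an unadjusted p under 0.05 in either direction. Over all genes the share at that unadjusted threshold was not computed, and 27.8% passed the adjusted one. In sorafenib, 4 were higher in ARID1B-KO cells than in WT cells and 1 was lower, where 27% of all genes were called, 13.2% higher and 13.8% lower. The median there was 0.10, beside -0.0043 over all genes. The genotypes did not overlap for 12 of the 37 in DMSO, where 42.2% of all genes did not, and for 6 in sorafenib, where 42.7% did not. CCNA2, CDC25C and CDCA8 were called higher under both treatments, AURKA, CDC20, KIF2C and MAD2L1 with DMSO, and CENPE with sorafenib.

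CCNA2 had the largest log2 fold change of the 37 with DMSO, at 0.71 ± 0.12 (edgeR adjusted p = 0.000935), and every ARID1B-KO DMSO library was above every WT DMSO library. In sorafenib its log2 fold change was 0.38 ± 0.12 (edgeR adjusted p = 0.0337), with the libraries again apart. CDC25C, the phosphatase that drives the full activation of CDK1, had 33.6, 47.5 and 35.4 CPM in ARID1B-KO sorafenib libraries, against 29.1, 26.6 and 26.2 CPM in WT sorafenib libraries. It had 33.7, 31.0 and 37.7 CPM in ARID1B-KO DMSO libraries, against 26.7, 20.5 and 19.97 CPM in WT DMSO libraries. ARID1B-KO libraries were above WT libraries under each treatment, and ARID1B-KO sorafenib replicate 2 was the highest of the 12. The CDC25C log2 fold change was 0.51 ± 0.14 (edgeR adjusted p = 0.0190) in sorafenib and 0.61 ± 0.14 (edgeR adjusted p = 0.00763) in DMSO. CDCA8 was at 0.28 ± 0.097 (edgeR adjusted p = 0.049997) in sorafenib and 0.37 ± 0.096 (edgeR adjusted p = 0.0134) in DMSO. AURKA was at 0.48 ± 0.10 (edgeR adjusted p = 0.00469) in DMSO and 0.28 ± 0.10 (edgeR adjusted p = 0.0680) in sorafenib, and MAD2L1 at 0.51 ± 0.17 (edgeR adjusted p = 0.0383) in DMSO and 0.16 ± 0.17 (edgeR adjusted p = 0.516) in sorafenib. CDC20 was at 0.34 ± 0.098 (edgeR adjusted p = 0.0199) and KIF2C at 0.27 ± 0.092 (edgeR adjusted p = 0.0446) in DMSO. The CDCA8 call with DMSO was lost without ARID1B-KO DMSO replicate 3 or WT DMSO replicate 2 or 3 (edgeR adjusted p between 0.0519 and 0.0656). The MAD2L1 call with DMSO was lost without ARID1B-KO DMSO replicate 1 or 3, WT sorafenib replicate 3 or WT DMSO replicate 2 or 3, and with scaling by library totals or the transcript length offset (edgeR adjusted p between 0.0518 and 0.158). The CDC20 call with DMSO was lost without ARID1B-KO DMSO replicate 3 or WT DMSO replicate 2 or 3, and with protein-coding transcripts alone (edgeR adjusted p between 0.0612 and 0.0834). The KIF2C call with DMSO was lost without ARID1B-KO DMSO replicate 1 or 3, WT sorafenib replicate 2 or 3 or WT DMSO replicate 1, 2 or 3, and with 4 settings that kept every library (edgeR adjusted p between 0.0523 and 0.195). The CCNA2 call in sorafenib was lost without ARID1B-KO sorafenib replicate 2 or 3 or WT sorafenib replicate 2 or 3, and with scaling by library totals (edgeR adjusted p between 0.0802 and 0.141). The CDC25C call in sorafenib was lost without ARID1B-KO sorafenib replicate 2 or WT sorafenib replicate 2 or 3, and with the transcript length offset (edgeR adjusted p between 0.0626 and 0.337). The CDCA8 call in sorafenib was lost without ARID1B-KO sorafenib replicate 1, 2 or 3, ARID1B-KO DMSO replicate 2, WT sorafenib replicate 1, 2 or 3 or WT DMSO replicate 2 or 3, and with 3 settings that kept every library (edgeR adjusted p between 0.0519 and 0.180). CCNA2, CDC25C and AURKA kept their DMSO calls under all 22 alternative settings. Without WT DMSO replicate 2, WT DMSO replicate 3 or ARID1B-KO DMSO replicate 3, the count of 7 fell to 3 in each case. Over all genes the calls in either direction fell from 3563 to 2529, 2574 and 2892.

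CENPE was higher in ARID1B-KO cells than in WT cells with sorafenib, at 0.29 ± 0.099 (edgeR adjusted p = 0.0449), and at 0.059 ± 0.099 (edgeR adjusted p = 0.697) in DMSO. The CENPE call in sorafenib was lost without ARID1B-KO sorafenib replicate 1, 2 or 3, ARID1B-KO DMSO replicate 2, WT sorafenib replicate 2 or 3 or WT DMSO replicate 2 or 3, and with 4 settings that kept every library (edgeR adjusted p between 0.0505 and 0.299). TOP2A was lower in ARID1B-KO cells with sorafenib, at -0.35 ± 0.10 (edgeR adjusted p = 0.0196), and at -0.26 ± 0.10 (edgeR adjusted p = 0.0680) in DMSO. With the transcript length offset the TOP2A value in sorafenib was -0.062. The TOP2A call in sorafenib was lost without ARID1B-KO sorafenib replicate 1 or WT sorafenib replicate 1, and with the transcript length offset or only the compared groups in the fit (edgeR adjusted p between 0.0505 and 0.778). In sorafenib the higher count of 4 became 0 without WT sorafenib replicate 2, WT sorafenib replicate 3 or ARID1B-KO sorafenib replicate 2. It became 1 without ARID1B-KO sorafenib replicate 3. Over all genes the calls in either direction fell from 3463 to 2587, 2620, 2479 and 3095 in the same order. None of the 5 calls in sorafenib held under all 22 alternative settings.

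AURKA, CCNA2, CDC20, KIF2C and MAD2L1 were both higher in ARID1B-KO DMSO cells than in WT DMSO cells and lower with sorafenib in ARID1B-KO cells. These contrasts share the ARID1B-KO DMSO libraries, in opposite places, so the values are given side by side and no relation is drawn. The ARID1B-KO sorafenib level of CCNA2 averaged 152 ± 20.4 CPM, against 135 ± 20.2 CPM in WT DMSO cells (mean ± SD, n = 3 each). MAD2L1 averaged 80.2 ± 10.9 CPM in ARID1B-KO sorafenib cells, against 103 ± 22.8 CPM in WT DMSO cells (mean ± SD, n = 3 each). AURKA averaged 159 ± 15.0 CPM in ARID1B-KO sorafenib cells, against 151 ± 16.1 CPM in WT DMSO cells (mean ± SD, n = 3 each). The SDs of these pairs overlap.

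AURKB, BUB3, CCNB1, CCNB2, CENPF, ESPL1, INCENP, KIF4A, NUF2, PTTG1, TTK and UBE2C, 12 of the 37, were called in none of the 5 contrasts. The share of all genes called in none of the 5 was not computed, so this count is not set against other genes. They include the B-type cyclins, separase and securin, and a missed threshold does not show that they did not differ.

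Regulators of the pathway were measured in the same libraries. Of 28 listed, among them FOXM1, MYBL2 and CDKN1A, 17 were called lower and 5 higher with sorafenib in ARID1B-KO cells (median log2 fold change -0.43). In WT cells 8 were lower and 4 higher (median -0.17). Over all genes 23.7% were lower and 23% higher in ARID1B-KO cells, and 18% and 17.5% in WT cells. Changes of the 28 ran from -1.32 to 1.49 in ARID1B-KO cells. FOXM1 had 72.7, 71.5 and 71.0 CPM in ARID1B-KO sorafenib libraries, against 87.3, 90.1 and 97.4 CPM in ARID1B-KO DMSO libraries. It had 80.5, 83.2 and 85.7 CPM in WT sorafenib libraries, against 78.8, 81.3 and 80.4 CPM in WT DMSO libraries. The ARID1B-KO sorafenib libraries were the lowest and the ARID1B-KO DMSO libraries the highest of the 12. FOXM1 fell with sorafenib in ARID1B-KO cells, at -0.35 ± 0.067 (edgeR adjusted p = 0.000912), and was at 0.052 ± 0.067 (edgeR adjusted p = 0.587) in WT cells. The FOXM1 call in ARID1B-KO cells was lost with the transcript length offset (edgeR adjusted p = 0.266). FOXM1 was lower in ARID1B-KO cells than in WT cells in sorafenib, at -0.21 ± 0.067 (edgeR adjusted p = 0.0330), and higher with DMSO, at 0.19 ± 0.067 (edgeR adjusted p = 0.0485). The FOXM1 call in sorafenib was lost without ARID1B-KO sorafenib replicate 2 or 3 or WT sorafenib replicate 1, 2 or 3, and with 6 settings that kept every library (edgeR adjusted p between 0.0509 and 0.344). The FOXM1 call with DMSO was lost without ARID1B-KO sorafenib replicate 1 or 2, ARID1B-KO DMSO replicate 2 or 3, WT sorafenib replicate 1, 2 or 3 or WT DMSO replicate 1, 2 or 3, and with 7 settings that kept every library (edgeR adjusted p between 0.0522 and 0.453). The interaction, -0.40 ± 0.095 (edgeR adjusted p = 0.0614), did not pass the threshold. MYBL2, the MuvB partner that acts before FOXM1, had 87.2, 97.5 and 79.9 CPM in ARID1B-KO sorafenib libraries, against 135, 139.7 and 138 CPM in ARID1B-KO DMSO libraries. In WT cells MYBL2 had 105, 91.6 and 96.3 CPM with sorafenib, against 118, 121 and 124 CPM with DMSO. It fell in both genotypes, at -0.64 ± 0.084 (edgeR adjusted p = 5.32e-05) in ARID1B-KO cells and -0.31 ± 0.084 (edgeR adjusted p = 0.0121) in WT cells. The MYBL2 call in WT cells was lost without WT sorafenib replicate 2, and with the transcript length offset (edgeR adjusted p between 0.0541 and 0.0600).

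CDKN1A, the p21 inhibitor whose induction leads to DREAM repression, had 116, 119 and 106 CPM in ARID1B-KO sorafenib libraries, against 60.1, 80.3 and 78.5 CPM in ARID1B-KO DMSO libraries. It had 76.1, 73.7 and 72.3 CPM in WT sorafenib libraries, against 41.2, 41.9 and 45.2 CPM in WT DMSO libraries. The ARID1B-KO sorafenib libraries were the highest and the WT DMSO libraries the lowest of the 12, and ARID1B-KO DMSO overlapped WT sorafenib. CDKN1A rose with sorafenib, at 0.63 ± 0.10 (edgeR adjusted p = 0.000247) in ARID1B-KO cells and 0.79 ± 0.10 (edgeR adjusted p = 7.31e-05) in WT cells.  It was also higher in ARID1B-KO cells than in WT cells, at 0.61 ± 0.10 (edgeR adjusted p = 0.000762) in sorafenib and 0.77 ± 0.10 (edgeR adjusted p = 0.000138) in DMSO. MKI67, the proliferation marker that coats mitotic chromosomes, was at -0.34 ± 0.13 (edgeR adjusted p = 0.0479) in ARID1B-KO cells, with overlapping groups, and at -0.20 ± 0.13 (edgeR adjusted p = 0.251) in WT cells. The MKI67 call in ARID1B-KO cells was lost without ARID1B-KO sorafenib replicate 2 or 3, ARID1B-KO DMSO replicate 1 or 2, WT sorafenib replicate 1 or 3 or WT DMSO replicate 2 or 3, and with 7 settings that kept every library (edgeR adjusted p between 0.0527 and 0.467).

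Other genes of the pathway, taken from lists of related mitotic genes, were counted by the same test, beside 23.7% lower and 23% higher over all genes with sorafenib in ARID1B-KO cells and 18% lower and 17.5% higher in WT cells. Of 33 further kinetochore genes, 16 were called lower and 2 higher in ARID1B-KO cells (median log2 fold change -0.36), and 12 lower and 1 higher in WT cells (median -0.29). CENPO, of the inner kinetochore, was at -1.02 ± 0.093 (edgeR adjusted p = 2.63e-06) in ARID1B-KO cells and -0.51 ± 0.092 (edgeR adjusted p = 0.000908) in WT cells. ZWILCH, of the complex that loads dynein, was at -1.10 ± 0.12 (edgeR adjusted p = 9.38e-06) in ARID1B-KO cells and -0.82 ± 0.12 (edgeR adjusted p = 0.000142) in WT cells. CENPI was called higher in both, at 0.35 ± 0.11 (edgeR adjusted p = 0.0173) in ARID1B-KO cells and 0.38 ± 0.11 (edgeR adjusted p = 0.0152) in WT cells. CENPC was called higher in ARID1B-KO cells, at 0.41 ± 0.10 (edgeR adjusted p = 0.00510). Of 21 condensin, cohesin and chromosome genes, 12 were lower and 0 higher in ARID1B-KO cells and 8 lower and 1 higher in WT cells. The condensin II subunit NCAPD3 was at -0.69 ± 0.075 (edgeR adjusted p = 1.04e-05) in ARID1B-KO cells and -0.56 ± 0.073 (edgeR adjusted p = 8.36e-05) in WT cells. NCAPD2 was called higher in WT cells, at 0.28 ± 0.078 (edgeR adjusted p = 0.0133). Of 34 further spindle and cytokinesis genes, 11 were lower and 2 higher in ARID1B-KO cells and 12 lower and 3 higher in WT cells. TUBG1, the gamma-tubulin that nucleates microtubules, was at -0.85 ± 0.084 (edgeR adjusted p = 5.00e-06) in ARID1B-KO cells and -0.59 ± 0.083 (edgeR adjusted p = 0.000138) in WT cells. CDK5RAP2 was called higher in both, at 0.48 ± 0.071 (edgeR adjusted p = 0.000137) in ARID1B-KO cells and 0.53 ± 0.071 (edgeR adjusted p = 0.000103) in WT cells. Of 19 subunits and regulators of the anaphase-promoting complex, 6 were lower and 3 higher in ARID1B-KO cells and 4 lower and 2 higher in WT cells, near the shares of all genes, and the medians were -0.011 in ARID1B-KO cells and -0.12 in WT cells. UBE2S, an enzyme that extends its ubiquitin chains, was at -1.05 ± 0.11 (edgeR adjusted p = 7.42e-06) in ARID1B-KO cells and -0.81 ± 0.11 (edgeR adjusted p = 8.90e-05) in WT cells. FZR1, the activator of the complex in late mitosis and G1, was at 0.55 ± 0.10 (edgeR adjusted p = 0.000671) in ARID1B-KO cells and 0.45 ± 0.10 (edgeR adjusted p = 0.00412) in WT cells.

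Genes of DNA replication, which act before mitosis in the same cycle, had larger median changes with sorafenib than the mitotic genes. Of 40 replication genes, 32 were called lower and 0 higher with sorafenib in ARID1B-KO cells (median log2 fold change -0.72), and 27 lower and 2 higher in WT cells (median -0.44), beside the same shares of all genes. RRM2, a subunit of the enzyme that makes deoxyribonucleotides, was at -1.45 ± 0.11 in ARID1B-KO cells (edgeR adjusted p = 4.20e-07) and at -1.16 ± 0.11 in WT cells (edgeR adjusted p = 4.02e-06). In sorafenib 21 of the 40 were lower in ARID1B-KO cells than in WT cells and 0 were higher (median -0.35), beside 13.8% lower and 13.2% higher over all genes, where 4 of the 37 mitotic genes were higher and 1 was lower (median 0.10). With DMSO 4 of the 40 were lower and 1 was higher in ARID1B-KO cells than in WT cells, below the 13.5% and 14.3% of all genes. The difference between the lists was not tested.

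**Figure D4:**
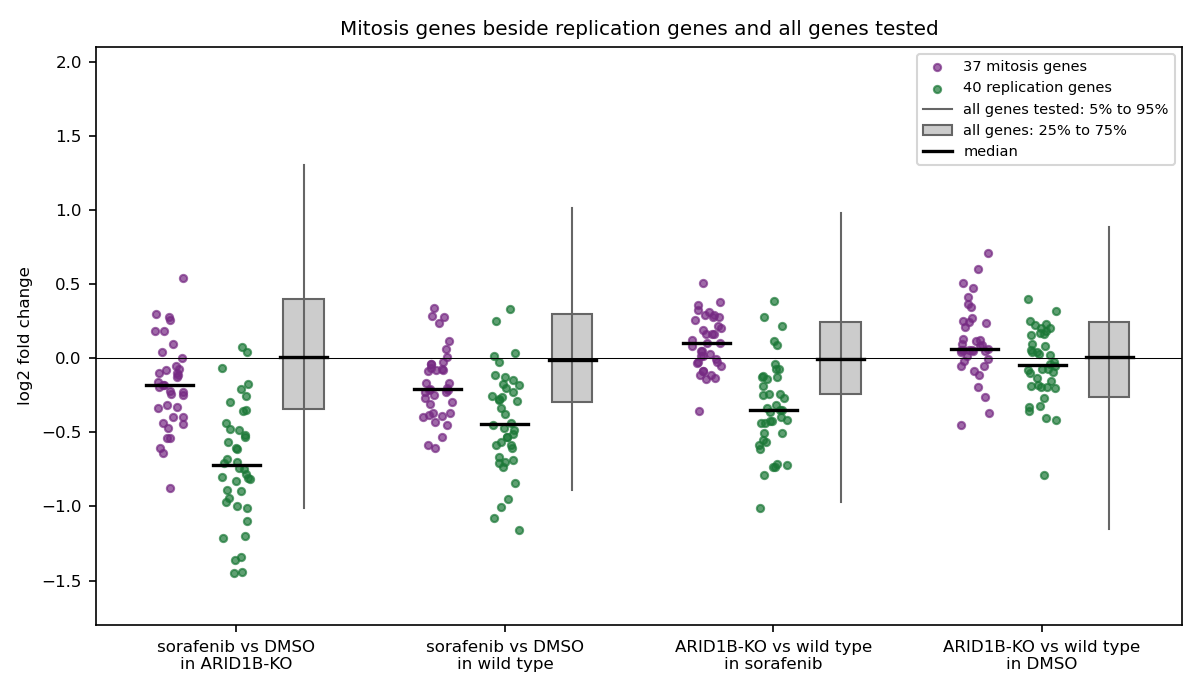
Log2 fold changes of the 37 mitosis genes (purple) and 40 replication genes (green), each gene a point with the list median as a bar, beside all genes tested (grey box 25% to 75%, line 5% to 95%) in 4 contrasts. The mitosis medians are -0.18, -0.21, 0.10 and 0.064 from left to right, and the replication medians -0.72, -0.44, -0.35 and -0.046.

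Per length, in the deposited TPM values summed over transcripts, CDK1 had the highest mean of the 37 over the 12 libraries, 207 TPM, with a range of 101 to 333 TPM. CCNB1 followed at 176 TPM, TOP2A at 171 TPM and MAD2L1 at 166 TPM, and their ranges overlapped that of CDK1. The order differed between groups: in WT sorafenib cells TOP2A averaged 169.6 ± 16.8 TPM, CCNB1 151 ± 11.8 TPM and CDK1 140.4 ± 34.4 TPM (SD, n = 3 each). At the low end were CENPE at 13.3 TPM, CDC25B at 12.5 TPM and ESPL1 at 6.24 TPM. For some genes these levels rest on transcripts annotated as not protein-coding. Of the TPM of MAD2L1, 92.6% in ARID1B-KO sorafenib cells and 92.2% in ARID1B-KO DMSO cells was assigned to such transcripts. In WT cells the share was 93.8% with sorafenib and 93.7% with DMSO. Most of it was MAD2L1-202, which is annotated for nonsense-mediated decay. By estimated counts the MAD2L1 shares were 69.5%, 68.4%, 71.5% and 70.4% in the same order. In WT DMSO cells such transcripts also held 63.55% of the TPM of CDC20, 56.2% of that of CENPA and 51.9% of that of BUB1. With protein-coding transcripts alone, MAD2L1 was at -0.88 with sorafenib in ARID1B-KO cells (edgeR adjusted p = 0.00200) and -0.56 in WT cells (edgeR adjusted p = 0.0318), a setting added after the data were seen. CENPF-204, a retained intron, held 69.8% and 68.2% of the TPM of CENPF in ARID1B-KO sorafenib and DMSO cells, and 61.8% and 61.0% in WT sorafenib and DMSO cells, but under 9% of its counts.

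The division between transcripts of a gene also differed by genotype for some members, described here without a test. AURKA-203 held 85.3% ± 2.9 of the TPM of AURKA in ARID1B-KO sorafenib cells and 80.9% ± 5.6 in ARID1B-KO DMSO cells, against 71.1% ± 3.8 in WT sorafenib cells and 68.8% ± 3.9 in WT DMSO cells (SD, n = 3 each). CDK1-202 held 22.1% ± 5.7 in ARID1B-KO sorafenib cells and 18.6% ± 3.9 in ARID1B-KO DMSO cells, against 7.43% ± 6.46 in WT sorafenib cells and 8.48% ± 1.01 in WT DMSO cells (SD, n = 3 each). INCENP-206 held 14.9% ± 25.7 in ARID1B-KO sorafenib cells and 21.4% ± 18.9 in ARID1B-KO DMSO cells, against 47.3% ± 3.9 in WT sorafenib cells and 46.0% ± 3.6 in WT DMSO cells (SD, n = 3 each). The spread of INCENP-206 in ARID1B-KO cells was as wide as its level, and its share differed widely between libraries. CDCA8-201 was wider still, at 59.8% ± 30.3 and 57.7% ± 35.6 in ARID1B-KO sorafenib and DMSO cells and 18.5% ± 23.2 and 24.4% ± 24.5 in WT sorafenib and DMSO cells (SD, n = 3 each).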

How the data were processed

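Polyadenylated RNA of 12 HepG2 libraries was sequenced as paired 75 bp reads from 750 ng of RNA with 9 PCR cycles, per the labels' protocols. Salmon, genome build GRCh38 and DESeq2 1.46.0 are named in the submitters' processing notes, and the design text names Ensembl release 109. Salmon's version and its strand and bias settings are not given in the sources used here. The deposited files hold estimated counts and TPM values per transcript that the authors made with Salmon, for 177456 transcripts. Of these, 165533 (93.3%) matched the GENCODE 44 annotation, and the unmatched ones, 2.87% to 3.20% of the counts, were left out.

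Estimated counts were summed per gene and rounded to whole numbers. Genes kept by edgeR's filterByExpr were tested (12821 genes) with edgeR 4.0.16, using TMM factors and the robust quasi-likelihood F test, in 1 fit of the 12 libraries with a mean per group. Each of 5 contrasts was adjusted by Benjamini-Hochberg over all genes tested and called at an adjusted p under 0.05. CPM values use the TMM-normalised library size, fold changes are on the log2 scale, and levels between genes were compared only in TPM. The fit was tested on simulated data with fewer changed genes and a smaller spread than these data, so that test does not measure the error rate here. The p-values set differences between groups against the spread between the replicates within them. A spread between ARID1B-KO clones cannot be read from them, as the number of clones is not stated. Same-numbered replicates were not treated as pairs.

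The members and lists were chosen with earlier results of these data known. Values in every library are given for the 3 largest rises and 3 largest falls among called members of each pairwise contrast, for PLK1, CDK1, CCNB1 and TOP2A, and for regulators of the pathway. From the other lists, genes were named among the 2 with the smallest adjusted p in each direction. The alternatives were DESeq2 1.42.0, other scalings and filters, a transcript length offset, a replicate block, the compared groups alone, leaving out mitochondrial genes or each library, and, added after the data were seen, protein-coding transcripts alone. Promoter sequences are from RefSeq, GRCh38.p14.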

Additional observations from a re-analysis of the deposited data

Results flagged for a closer look

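No member of the 37 passed the test of a difference between the genotypes in the response to sorafenib. Of the comparison lists, 2 of 40 replication genes did, with a more negative change in ARID1B-KO cells than in WT cells, and 0 in each of the other 5 lists, of 19, 21, 28, 33 and 34 genes. Over all genes 0.835% were called, 0.46% lower and 0.374% higher. The median interaction of the 40 replication genes was -0.29, beside -0.011 over all genes. With 2 calls, and lists chosen with earlier results of these data known, a difference of the replication list from other genes was not tested. UHRF1, which guides maintenance DNA methylation at the replication fork, had an interaction of -0.60 ± 0.12 on the log2 scale (edgeR adjusted p = 0.0411). MCM7, a subunit of the replicative helicase, had an interaction of -0.52 ± 0.11 (edgeR adjusted p = 0.0465). Whether these 2 calls held under the alternative settings was not examined. Over all genes, the 107 calls of the interaction became 2 with the transcript length offset and 584 with DESeq2.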

How the results depend on the processing

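With 3 libraries a group, counts of called members moved with single libraries and with the scaling, and no call changed sign under any of the 22 alternative settings. Over 4033 gene-level values, 3815 stayed on their side of the threshold, 174 lost the call and 44 gained one. Among the 3815, 181 values called in neither setting changed sign. The causes were not tested. With sorafenib in ARID1B-KO cells, the 3 higher calls became 0 under scaling by library totals and 1 to 4 with 1 library left out, and the 15 lower calls became 9 to 15. In WT cells, the 2 higher calls became 1 under library totals, no filter, the length offset or the replicate block and 1 to 3 with 1 library left out; the 11 lower calls became 6 under the length offset and 3 to 14 with 1 library left out. For ARID1B-KO against WT in sorafenib, the 4 higher calls became 1 under library totals, 2 with no filter, 1 under the length offset and 0 to 6 with 1 library left out; the 1 lower call became 0 under the length offset, 0 with only the groups compared and 0 to 1 with 1 library left out. In DMSO, the 7 higher calls became 3 to 7 with 1 library left out; the 0 lower calls became 1 under RLE normalization or without mitochondrial genes, 2 with DESeq2, 2 with a 5 CPM minimum mean, and 0 to 1 with 1 library left out. Over all genes, the length offset called 4089 genes with sorafenib in ARID1B-KO cells instead of 5982, and 2869 in WT cells instead of 4543; 2047 instead of 3463 for ARID1B-KO against WT in sorafenib and 2190 instead of 3563 in DMSO. With 1 library left out, 5143 to 6076 of all genes were called with sorafenib in ARID1B-KO cells and 3587 to 4762 in WT cells. For ARID1B-KO against WT the counts were 2479 to 3596 in sorafenib and 2529 to 3851 in DMSO. The interaction called 107 genes, against 2 with the length offset, 30 with library totals and 584 with DESeq2. It called 19 with the replicate block, 19 with protein-coding transcripts and 5 to 138 with 1 library left out.

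Same-numbered libraries correlated at -0.16 to 0.18 in their deviations from group means, so the numbers were not taken as pairs. With the replicate block, 14 members were lower with sorafenib in ARID1B-KO cells, 10 were lower and 1 higher in WT cells, and 6 were higher in ARID1B-KO DMSO cells than in WT DMSO cells.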
